A study of Caenorhabditis elegans with 12 samples.

Results

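The RNA of the polysome fraction was compared with the total RNA of the same lysates in young adults of Caenorhabditis elegans labelled wt. The comparison used 6 of the 12 libraries of the series, taken as 3 pairs by culture number: 3 libraries labelled polysomal and 3 labelled total. The other 6 libraries have the same layout in worms labelled glh1, after the gene of a germline RNA helicase, and entered one test of the difference between genotypes. Polysomal RNA came from the polysome fraction of a gradient of 10 to 50% sucrose, loaded with a part of a lysate of whole worms made in the presence of cycloheximide. The rest of that lysate gave the total RNA. Worms of each culture had grown from synchronised first-stage larvae in liquid medium for about 40 h at 20 °C, and mRNA was isolated from both fractions before stranded libraries were made and read for 75 cycles. The strain and its background are not given beyond the label wt, and each library is a pool of many whole worms.

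A polysome is an mRNA that several ribosomes translate at once, and it sediments faster than a single ribosome or a free messenger ribonucleoprotein particle. Cycloheximide stops elongation and keeps ribosomes on the mRNA during lysis. The share of an mRNA that sediments with polysomes is a usual measure of how far that mRNA is engaged in translation, and the worm germ line is a textbook case of control at this step, since RNA-binding proteins such as GLD-1, FBF, OMA-1 and LIN-41 hold many maternal mRNAs untranslated. Below, the polysomal to total ratio of a gene is its level in polysomal RNA over its level in total RNA, both in CPM, its counts relative to the summed counts of the library, scaled between libraries by the trimmed mean of M-values (TMM), and it is given as a log2 value with its SE. It is a relative measure: a positive value means that the gene took a larger share of polysomal RNA than of total RNA, and no value gives the amount of RNA on ribosomes. In RNA of whole animals, fewer cells of a type and less RNA per cell cannot be told apart.

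The polysomal libraries held 44299217, 37969497 and 38026083 estimated counts, and the total RNA libraries of the same cultures held 46690345, 39252389 and 49672537. Genes annotated as ribosomal RNA took 4.89, 7.34 and 9.51% of the counts of polysomal RNA and 40.4, 39.0 and 28.9% of the counts of total RNA, in spite of mRNA isolation. The first principal component separated the fractions and held 59.4% of the variance. The second held 28% and separated culture 1, at -63.5 in polysomal and -52.3 in total RNA, from cultures 2 and 3, at 21.9 to 43. The samples carry a tissue label of whole embryo, while their growth protocol is one for young adults. In total RNA the 6 yolk protein genes of the adult intestine summed to 21851 CPM on average. The 5 oocyte markers summed to 1288 CPM, the 5 adult cuticle markers to 921 CPM and the 6 markers of larval molting to 75.6 CPM. Of 8 genes that mark zygotic transcription in embryos, 3 passed the filter on low counts and summed to 1.85 CPM.

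Polysomal RNA differed widely from total RNA. Of 15860 genes tested, 5030 (31.7%) were higher and 4518 (28.5%) lower in polysomal RNA, so that 60.2% passed the test (edgeR's quasi-likelihood test, adjusted p under 0.05, cultures as pairs). A change of at least 2-fold was called for 2361 higher genes (14.9%) and 2506 lower genes (15.8%). All 3 polysomal values lay above all 3 total values for 25.7% of genes and below them for 24.8%. The sign of the ratio was the same in all 3 cultures for 75.0% of genes, and across genes the ratio correlated between cultures at Pearson's r of 0.779 to 0.859, as a description. The median ratio of all genes was 0.06 with TMM scaling and 0.31 with upper-quartile scaling, under which 6534 genes were higher and 3420 lower. The sign of a ratio near 0 is therefore a matter of scaling, and the lists below are read against the median of all genes. Without the pairing, 3140 genes were higher and 3217 lower.

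Short mRNAs took a larger share of polysomal RNA than of total RNA and long mRNAs a smaller one. In the tenth of genes with the shortest exon length (median 419 nucleotides) the median ratio was 0.88, and 973 of 1585 genes were higher and 89 lower. Between 1128 and 1316 nucleotides the median was 0.07, with 437 genes higher and 373 lower. In the tenth with the longest exon length (median 3958 nucleotides) the median was -0.70, with 158 genes higher and 974 lower. The medians fell from bin to bin in each of the 3 cultures. In the shortest bin they were 0.83, 0.67 and 1.08 in cultures 1, 2 and 3, and in the longest bin -0.57, -0.66 and -0.81. Spearman's rho across 15847 genes with a length was -0.457 for the fitted ratio and -0.427, -0.404 and -0.467 in cultures 1, 2 and 3. Genes are not independent replicates, and the same libraries stand behind each point, so that rho is a description.

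**Figure D1:**
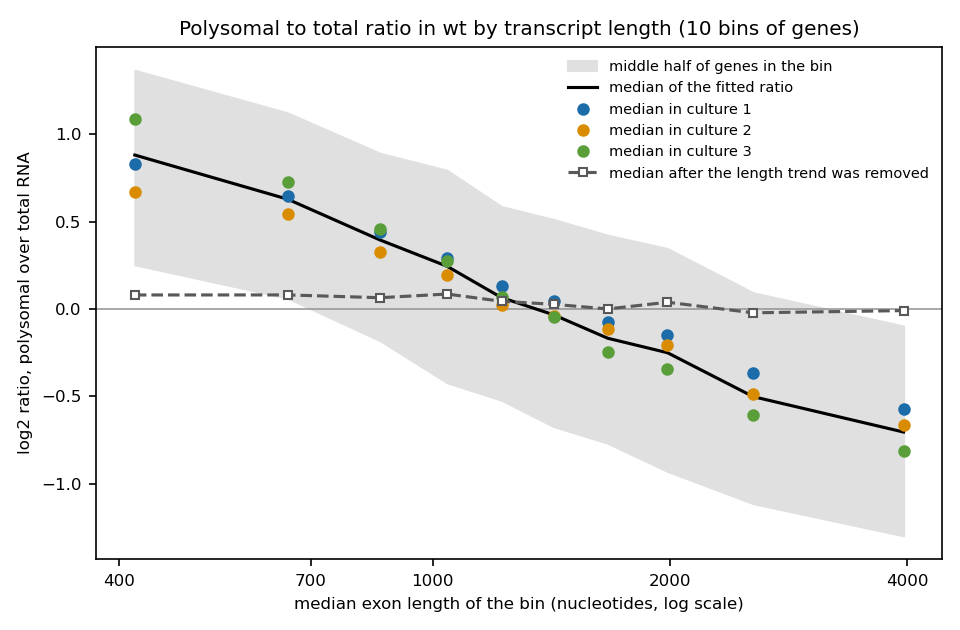
Median log2 polysomal to total ratio (y axis) in 10 equal bins of genes by exon length (x axis, log scale), with the range between the quartiles shaded, the medians of each culture as filled points and the medians after removal of the length trend as open squares. The fitted medians run from 0.88 in the shortest bin to -0.70 in the longest, and lie between -0.02 and 0.09 once the trend is removed.

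Among 15178 protein-coding genes, coding length (rho -0.478) and exon length (rho -0.477) ranked with the ratio alike, and the number of exons less closely (rho -0.390). The length of the 3′ UTR gave rho -0.152 over 14044 genes and that of the 5′ UTR -0.02 over 12888 genes. Intron length gave -0.150, and 0.126 after the trend on exon length was removed. The level of the gene, taken as CPM per kilobase in the total RNA libraries of glh1 so that it shared no library with the ratio, gave 0.04. To set the length of genes aside, the trend of each library on exon length was removed, and the test was run again over 15847 genes. Then 4711 genes (29.7%) were higher and 4194 (26.5%) lower. Each ratio below is given as fitted, and where length matters with the length trend removed, called the length-adjusted ratio.

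**Figure D2:**
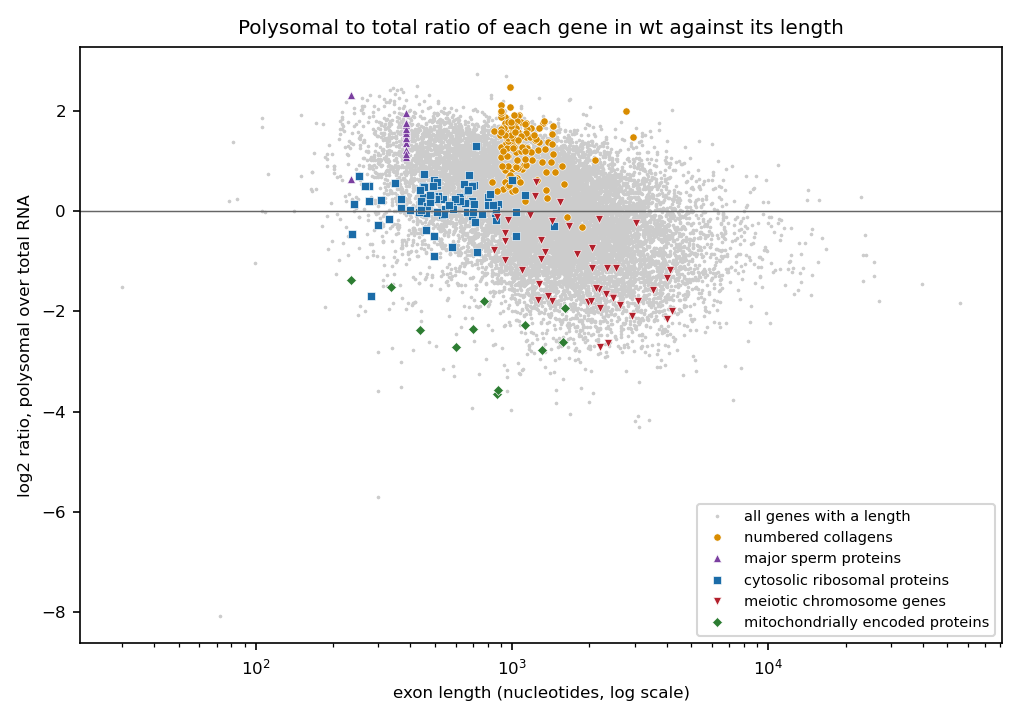
Log2 polysomal to total ratio of each gene (y axis) against its exon length (x axis, log scale), with 5 gene groups coloured. Numbered collagens (median 1.4) lie above other genes of their length, cytosolic ribosomal proteins (median 0.18) and mitochondrially encoded proteins (median -2.36) lie below genes of theirs, and meiotic genes (median -1.17) lie in the lower part.

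Several kinds of RNA that cytosolic ribosomes do not translate were low in polysomal RNA. The mitochondrial genome encodes subunits of the respiratory chain that are translated on mitochondrial ribosomes, and all 12 such mRNAs tested were lower, with a median of -2.36 and a range of -3.66 to -1.37. Their medians were -3.20, -2.03 and -1.92 in cultures 1, 2 and 3. COX3, a subunit of cytochrome oxidase, had 309, 279 and 350 CPM in polysomal RNA and 1760, 863 and 834 CPM in total RNA of cultures 1, 2 and 3 (ratio -1.79 ± 0.26, adjusted p = 4.1e-07). The polysomal values lay close together, and the total value of culture 1 was the highest. ND1 and ND6, subunits of NADH dehydrogenase, had ratios of -3.66 and -2.38. All 5 genes annotated as ribosomal RNA that were tested were lower too, with a median of -2.77, and their share of each library is given above. Ribosomal RNA is a part of ribosomes, and mRNA was isolated from both fractions. The ratio of the ribosomal RNA that was left is therefore not a measure of its place on polysomes.

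Of 534 pseudogenes tested, 254 were lower and 37 higher, with a median of -0.70, against 4215 lower and 4976 higher of 15178 protein-coding genes, whose median was 0.09. Adjusted for length, 283 pseudogenes were lower and 23 higher. Of 47 long intergenic noncoding RNAs tested, 17 (36.2%) were lower and 2 higher (median -0.46), and adjusted for length 24 were lower and 2 higher. Of 65 other noncoding RNAs, 21 (32.3%) were lower and 9 higher (median -0.21), and adjusted for length 33 were lower and 3 higher. Of 17 antisense RNAs, 5 (29.4%) were lower and 1 higher (median -0.19), and adjusted for length 9 were lower and 1 higher. As fitted, the shares lower of these 2 classes were near the 28.5% of all genes. The long noncoding RNA tts-1 (chromosome X, 1504131 to 1504841, minus strand, WBcel235) was the most abundant of those named here, with 1232, 478 and 605 CPM in polysomal RNA and 8559, 2950 and 3127 CPM in total RNA of cultures 1, 2 and 3. Its ratio was -2.60 ± 0.34 (edgeR, adjusted p = 5.0e-08), and the fractions did not overlap, which the rule for naming genes required. The low-level linc-40 had 0.161, 0.177 and 0.264 CPM against 1.59, 2.03 and 2.06 CPM (ratio -3.23 ± 0.36), and linc-15 and the antisense RNA anr-7 had length-adjusted ratios of -3.62 and -3.04. The sources used here do not say if reads were counted by strand, so that reads of an antisense RNA and its partner gene may be mixed, as may reads of pseudogenes and their parent genes.

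Among genes with a class name and a mean above 100 CPM in polysomal RNA, the highest ratio was that of dod-3 (chromosome V, 2730622 to 2731098, minus strand), a gene named for its place downstream of the insulin-regulated factor DAF-16. It had 632, 780 and 679 CPM in polysomal RNA and 118, 171 and 140 CPM in total RNA, a 4.91-fold difference (ratio 2.30 ± 0.21, adjusted p = 3.2e-11). Every polysomal value was above every total value, a condition of the naming rule. The peptide genes nlp-33 and nlp-31, which encode antimicrobial peptides of the epidermis, had ratios of 2.20 ± 0.18 each. In cultures 1, 2 and 3, nlp-33 had 33.5, 61.7 and 38.9 CPM in polysomal RNA and 6.60, 12.0 and 10.3 CPM in total RNA. The caenacins cnc-2 and cnc-7 (2.42 and 2.33), the fungus-induced peptide gene fipr-24 (2.50), the collagens col-108 and col-170 (2.48 and 2.12), nspc-4 (2.27), the insulin-like gene ins-29 (2.23), nlp-25 (2.22) and clx-1 (2.25) made up the rest of the first 12. Of these, fipr-24, col-108, cnc-2 and nlp-25 stayed below 2 CPM in every library.

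With the length trend removed, the first 8 higher genes were col-46 (2.54), clx-1 (2.41), nlp-25 (2.38), col-108 (2.27), clec-266 (2.24), lips-7 (2.20), txt-8 (2.18) and kcnl-1 (2.12). The C-type lectin gene clec-266, with 3036 nucleotides of exons, had 75.9, 128 and 95.6 CPM in polysomal RNA and 21.5, 49.6 and 27.3 CPM in total RNA of cultures 1, 2 and 3 (ratio 1.66 ± 0.15). The predicted potassium channel gene kcnl-1, with 3474 nucleotides, had 17, 15.2 and 16.2 CPM against 6.52, 5.22 and 5.57 CPM. For both genes the fractions did not overlap, which the naming rule required.

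The lowest ratio under the naming rule was that of tcer-1 (chromosome II, 7045874 to 7050071, minus strand), the worm relative of a transcription elongation factor that is known for its part in the longevity of germline-less worms. It had 3.82, 3.15 and 3.99 CPM in polysomal RNA and 46.9, 85.0 and 70.9 CPM in total RNA, a level 17.9-fold higher in total RNA (ratio -4.16 ± 0.21, adjusted p = 6.3e-15). The polysomal values were nearly equal while total RNA varied between cultures. The DNA helicase gene rtel-1 (-3.42), the autophagy gene epg-5 (-3.77), pqn-20 (-3.27), tftc-1 (-3.19), rmh-2 (-3.19), a gene of the RMI family, the importin alpha gene ima-1 (-3.15), the helicase gene znfx-1 (-3.14), fbxa-215 (-3.12), rabx-5 (-3.11), apc-17 (-3.26) and linc-40 were the other 11. The gene ima-1 had 9.73, 8.53 and 5.42 CPM in polysomal RNA and 69.0, 53.2 and 89.4 CPM in total RNA of cultures 1, 2 and 3. Adjusted for length, tcer-1 (-3.53), apc-17 (-3.39), linc-40 (-3.37) and fbxa-215 (-3.08) were again among the first 8 lower, beside linc-15, tts-1, anr-7 and the histone gene his-2. The genes apc-17, his-2 and the noncoding RNAs other than tts-1 had a mean under 3 CPM in total RNA.

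Many messenger RNAs of germ cells and oocytes were low in polysomal RNA, but not those of the major sperm proteins, given below. Of 30 mRNAs with known repression by germline RNA-binding proteins, 25 (83.3%) were lower and 1 was higher, with a median of -1.11, and 18 were lower by at least 2-fold. The medians of the 3 cultures were -1.05, -1.13 and -1.21, and the length-adjusted median was -0.80 with 22 lower. The mRNA of glp-1 (chromosome III, 9092241 to 9099698), the Notch receptor of germline stem cells, had 19.2, 28.2 and 20.7 CPM in polysomal RNA and 101, 158 and 141 CPM in total RNA (ratio -2.55 ± 0.15, adjusted p = 6.3e-15). The maternal mRNA of spn-4 (chromosome V, 6783187 to 6784903, minus strand), an RNA-binding protein of the early embryo, had 48.5, 96.6 and 88.6 CPM against 325, 481 and 506 CPM (ratio -2.52 ± 0.18). In both genes the highest polysomal value stayed far below the lowest total value.

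Other members of that list had ratios spread over the whole range. The phosphatase gene cdc-25.3 had 2.55, 4.89 and 3.70 CPM in polysomal RNA and 13.7, 28.9 and 24.2 CPM in total RNA (-2.57 ± 0.19), and zif-1, a substrate adaptor that removes germ plasm proteins from somatic cells of the embryo, had -2.13 ± 0.17. The sex-determination genes fem-3 (-1.71), fog-1 (-1.75) and tra-2 (-1.21) and the oocyte regulator lin-41 (-1.43) were lower. Smaller ratios were called for the maternal genes pos-1 (-1.04), nos-2 (-0.94) and mex-3 (-0.87) and for oma-2 (-0.48). The mRNA of htp-2, a chromosome axis protein, was the 1 that was higher (0.58), and htp-1 (0.31), mpk-1 (0.06), him-3 (-0.08) and puf-5 (-0.31) did not pass the test. The genes htp-1 and htp-2 are close copies, so that the division of their reads is uncertain.

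The germline RNA-binding proteins and translation regulators themselves were lower for 31 of 48 genes and higher for 4, with a median of -0.56 and a length-adjusted median of -0.30. The poly(A) polymerase genes gld-4 (-2.68 ± 0.18) and gld-2 (-1.96 ± 0.16) and their partner gld-3 (-1.99 ± 0.15) were low together. In cultures 1, 2 and 3, gld-4 had 7.90, 9.28 and 7.40 CPM in polysomal RNA and 42.7, 51.6 and 65.4 CPM in total RNA. The mRNA of daz-1, a relative of the human DAZ genes, had 34.7, 45.2 and 34.4 CPM against 114, 187 and 166.6 CPM (ratio -2.01 ± 0.15). The translational repressor gld-1 had a ratio of -1.04. The 4 that were higher were the cold-shock domain gene cey-3 (0.78), car-1 (0.72), fog-3 (0.61) and fbf-2 (0.51). Adjusted for length, 7 were higher and 21 lower.

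The genes of meiotic chromosomes had the lowest median of any list of nuclear genes (-1.17). Of 45 tested, 35 (77.8%) were lower, 26 of them by at least 2-fold, and htp-2 alone was higher. Adjusted for length the median was -0.93, with 37 lower and 2 higher. The medians were -0.75 in culture 1 and -1.42 and -1.46 in cultures 2 and 3. The cohesin gene rec-8 had 27.1, 25.6 and 24.6 CPM in polysomal RNA and 70.1, 98.9 and 91.8 CPM in total RNA (ratio -1.74 ± 0.15, adjusted p = 2.5e-11). The polysomal values were nearly the same while total RNA was lowest in culture 1. The recombination gene him-18, a relative of SLX4, had 6.05, 6.86 and 5.47 CPM against 28.5, 43.8 and 50.8 CPM (ratio -2.70 ± 0.20). The nuclease gene spo-11, which makes the meiotic double-strand breaks, had a ratio of -1.79, while rad-51 (0.20) and syp-1 (-0.23) did not pass the test.

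Genes of the small RNA pathways were lower for 39 of 55 (70.9%) and higher for 2, with a median of -0.95. The Argonaute gene ergo-1 had 29.9, 42.2 and 34.5 CPM in polysomal RNA and 101, 203 and 165 CPM in total RNA of cultures 1, 2 and 3 (ratio -2.09 ± 0.15). The RNA-dependent RNA polymerase gene ego-1 had a ratio of -1.74 ± 0.15, the nuclear RNA interference gene nrde-4 -1.89 ± 0.17 and dcr-1, the Dicer gene, -1.16. These mRNAs are long, with a median exon length of 2983 nucleotides, and adjusted for length 34 were lower and 12 higher, with a median of -0.59. The ratio of dcr-1 was -0.41 after the adjustment. The Argonaute gene alg-2 (0.96) and the piRNA pathway gene pid-3 (0.79) were the 2 higher as fitted. The Argonaute gene csr-1 (0.04) did not pass before the adjustment and did after it (0.69).

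Of 23 genes of P granule proteins, 12 were lower and 1 was higher as fitted, with a median of -0.45. Adjusted for length, 8 were lower and 8 higher, with a median of -0.06. The mRNA of znfx-1 was low either way (-3.14 and -2.36), with 4.23, 3.56 and 5.34 CPM in polysomal RNA and 38.6, 33.2 and 42.9 CPM in total RNA. The disordered proteins meg-1 and meg-3 had ratios of -1.58 and -1.69, and pgl-2 of -1.15. In contrast, pgl-3 was higher (0.57, and 0.98 adjusted), and pgl-1 (-0.15) and glh-1 itself (0.04) did not pass the test as fitted. The helicase gene glh-1 had 293, 385 and 381 CPM in polysomal RNA and 307, 422 and 303 CPM in total RNA, and the fractions overlapped. Adjusted for length its ratio was 0.57 and passed the test (adjusted p = 0.020). It may share reads with its close paralog glh-2.

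Eggshell and yolk uptake genes were lower for 17 of 23 and higher for 4 (median -0.70, length-adjusted -0.35). The chitin synthase gene chs-1 had 40.0, 69.2 and 62.02 CPM in polysomal RNA and 164, 249 and 272 CPM in total RNA (ratio -2.0 ± 0.15). The permeability barrier genes perm-4 (1.86) and perm-2 (1.70), which are vitelline layer proteins, went the other way. In cultures 1, 2 and 3, perm-4 had 2009, 3459 and 3246 CPM in polysomal RNA and 540, 1072 and 811 CPM in total RNA. Of 34 kinesins and dynein chains, 14 were lower and 9 higher (median -0.28), and adjusted for length 11 were lower and 7 higher (median -0.13). The oocyte spindle kinesin klp-18 had 17.9, 26.6 and 22.5 CPM against 80.3, 115.5 and 96.8 CPM (ratio -2.13 ± 0.15), and klp-19 (-1.99), bmk-1 (-1.91) and zen-4 (-1.67) were low as well. Nuclear pore genes were lower for 16 of 25 and higher for 3 as fitted, with a median of -0.58. Adjusted for length, 6 of 25 were lower and 7 higher, with a median of -0.10. Those adjusted shares were near the 26.5% lower and 29.7% higher of all genes.

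Collagens, the structural proteins of the cuticle, were high in polysomal RNA. Of 146 numbered collagens tested of 156 annotated, 133 (91.1%) were higher and 0 lower, with a median of 1.4 and a length-adjusted median of 1.27. The culture medians were 1.19, 1.26 and 1.65. All 3 polysomal values lay above all 3 total values for 60 of the 146, against 25.7% of all genes. The gene col-167 had 93.2, 153 and 121 CPM in polysomal RNA and 28.99, 42.5 and 28.4 CPM in total RNA (ratio 1.88 ± 0.15, adjusted p = 1.9e-12). Both fractions of col-71 were several-fold lower in culture 1 than in the other cultures, at 44.3, 196 and 157 CPM in polysomal RNA and 14.5, 62.2 and 38.4 CPM in total RNA, and the ratio was 1.77 ± 0.15 although the fractions overlapped. Among 22 collagens and processing enzymes named for body shape, 21 were higher, with examples in dpy-3 (1.77), rol-8 (1.59), rol-1 (1.54) and dpy-17 (1.5). The exception was bli-1 (-1.86 ± 0.27), a collagen of the struts that join the layers of the adult cuticle, which had 0.500, 1.06 and 0.977 CPM against 1.67, 3.69 and 4.03 CPM.

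Other families of secreted proteins differed in how many members were higher. Hedgehog-related proteins were higher for 26 of 45 and lower for 1, with a median of 0.93 (0.75 adjusted for length), with grl-16 at 47, 108 and 98.6 CPM in polysomal RNA and 16.6, 38.6 and 28.4 CPM in total RNA. Transthyretin-related proteins were higher for 50 of 57 and lower for 0, with a median of 1.17 (0.61 adjusted), and small secreted antimicrobial peptides for 33 of 38 and lower for 0, with 1.49 (0.71 adjusted). The gene ttr-6 had 73.9, 66.4 and 72.2 CPM in polysomal RNA and 15.6, 21.1 and 15 CPM in total RNA (ratio 2.06 ± 0.16), and the thaumatin-family gene thn-1 had a ratio of 1.71 ± 0.15. Lysozymes and saposin-like proteins were higher for 26 of 41 and lower for 3 (median 0.80), and adjusted for length 16 were higher and 5 lower (median 0.29). Cathepsins and aspartyl proteases were higher for 14 of 24 and lower for 2 (median 0.71). C-type lectins were higher for 46 of 121, a share near the 31.7% of all genes, and lower for 13 (median 0.43). Astacin metalloproteases, also secreted, were higher for 3 of 28 and lower for 4 (median -0.21).

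Precursors of neuropeptides and insulin-like peptides were high for the most part as fitted and less so adjusted for length. The NLP list also holds nlp-31, nlp-33 and other genes of antimicrobial peptides. Of 71 NLP and PDF precursors, 55 were higher and 1 lower (median 0.94), and adjusted for length 31 were higher and 11 lower (median 0.34). Of 30 FLP precursors, 23 were higher and 0 lower (median 0.81). Adjusted for length, 9 were higher, a share near the 29.7% of all genes, and 4 lower (median 0.21). With the trend on coding length removed instead, the FLP median differed from that of all genes by -0.03. Of 31 insulin-like peptides, 24 were higher and 0 lower (median 1.13), and adjusted for length 14 were higher and 4 lower. The neuropeptide gene flp-12 had 95.2, 77.7 and 76.3 CPM in polysomal RNA and 38.2, 33.4 and 30.4 CPM in total RNA (ratio 1.29 ± 0.15). Among 42 synaptic and pan-neuronal genes, which are long, 10 were higher and 17 lower, and adjusted for length 17 were higher and 7 lower. In that list unc-17, the vesicular acetylcholine transporter, had 16, 12.6 and 13.8 CPM in polysomal RNA and 5.05, 4.27 and 4.05 CPM in total RNA (ratio 1.67 ± 0.19), and ric-8, a G protein regulator, was lower (-1.66 ± 0.19).

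Sperm products were split by kind. The major sperm proteins, the cytoskeletal and signalling proteins of nematode sperm, were higher for 29 of 30 and lower for 0, with a median of 1.56 and a length-adjusted median of 0.74. The gene msp-65 had 71.8, 106 and 98.3 CPM in polysomal RNA and 18.8, 29.9 and 22.7 CPM in total RNA of cultures 1, 2 and 3 (ratio 1.96 ± 0.15, adjusted p = 1.1e-12). The small sperm peptide families were higher for 26 of 28, among them ssq-2 (1.91) and nspd-3 (1.99). Their median was 1.53, and adjusted for length it was 0.62 with 21 higher and 1 lower. Of 29 spe and fer genes, named from sterile mutants, 9 were higher and 7 lower (median 0.18). Those shares were near the 31.7% higher and 28.5% lower of all genes. The transcription factor spe-44, which starts the sperm program, was lower (-1.52 ± 0.19), as was spe-39 (-1.77 ± 0.19), while spe-47 (1.38) and spe-18 (1.19) were higher. The major sperm proteins and the nspd genes are families of near-identical copies, so that the value of a single member is uncertain.

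**Figure D3:**
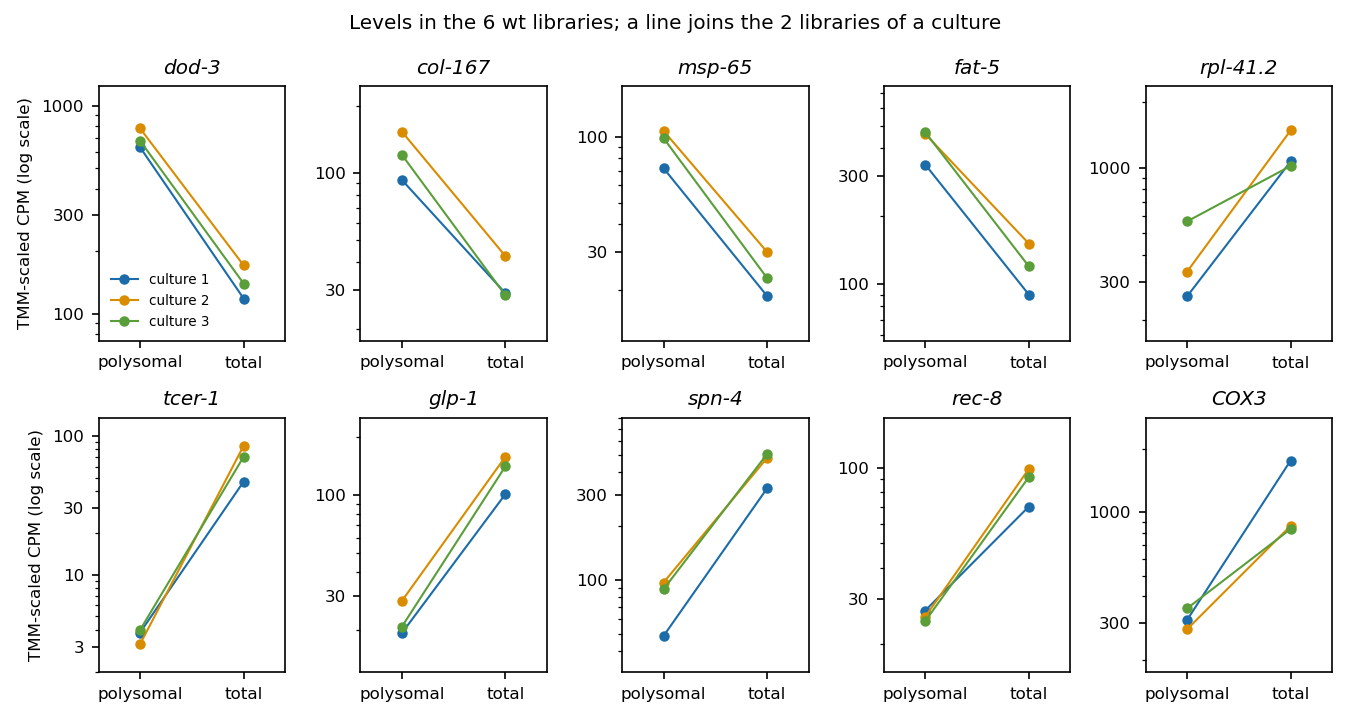
TMM-scaled CPM (y axis, log scale, one range per gene) of 10 genes in the 6 wt libraries, polysomal on the left and total on the right of each panel, with a line joining the libraries of a culture. Lines go down to total RNA for dod-3, col-167, msp-65 and fat-5 and up to total RNA for rpl-41.2, tcer-1, glp-1, spn-4, rec-8 and COX3, in all 3 cultures each.

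Genes of energy metabolism and of the proteasome were high. Glycolysis and gluconeogenesis genes were higher for 17 of 22 and lower for 1, with a median of 0.96 and a length-adjusted median of 1.09. The aldolase gene aldo-1 had 533, 565 and 612 CPM in polysomal RNA and 172, 207 and 178 CPM in total RNA (ratio 1.62 ± 0.20), ldh-1, lactate dehydrogenase, had 1.47 ± 0.15 and fbp-1, fructose bisphosphatase, 1.39 ± 0.17. The hexokinase gene hxk-1 was the lower one (-1.18). Nuclear genes of the respiratory chain were higher for 59 of 71 and lower for 2 (median 0.83, length-adjusted 0.53), the reverse in sign of the chain's mitochondrially encoded subunits. The complex I gene ndua-2 had 73.6, 118.7 and 121 CPM in polysomal RNA and 24.7, 47.8 and 32.8 CPM in total RNA (ratio 1.59 ± 0.15). Proteasome subunits were higher for 23 of 33 and lower for 2 (median 0.70, length-adjusted 0.66), with pbs-1 at 266, 427 and 376 CPM against 92.2, 169 and 117 CPM. Within fatty acid metabolism, enzymes differed in sign: the desaturase fat-5 was higher (1.82 ± 0.18), and fat-2 (-1.87 ± 0.24) and fat-3 (-1.85 ± 0.24) were lower. In cultures 1, 2 and 3, fat-2 had 299.9, 374 and 334 CPM in polysomal RNA and 1351, 1284 and 1051 CPM in total RNA.

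Genes of the translation machinery did not move as 1 group. For the cytosolic ribosomal proteins, whose short mRNAs are among the most abundant of the animal, 70 of 82 did not pass the test, 8 were higher and 4 lower, with a median of 0.18. The culture medians were -0.46, 0.24 and 0.72 and so differed in sign between culture 1 and the others. Adjusted for length, 23 were lower and 1 higher, with a median of -0.43. The share lower was near the 26.5% of all genes, while 29.7% of all genes were higher. The ribosomal protein gene rpl-3 had 1437, 2814 and 3125 CPM in polysomal RNA and 2882, 3336 and 2464 CPM in total RNA of cultures 1, 2 and 3, so that culture 1 lay lower in polysomal RNA and culture 3 higher. The 4 lower ones were rpl-41.2 (-1.69 ± 0.27), rpl-25.1 (-0.90), rpl-11.2 (-0.81) and rpl-24.2 (-0.71), each with a paralog in the genome. Reads of such pairs may be divided wrongly.

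Initiation factors were higher for 18 of 36 and lower for 7, with a median of 0.40. The ribosome assembly factor eif-6 had 190, 250 and 223 CPM in polysomal RNA and 77.2, 114 and 78.1 CPM in total RNA (ratio 1.32 ± 0.15), and the cap-binding protein ife-2 had a ratio of 1.3 ± 0.16. Of the nucleotide exchange factor eIF2B, the delta (-1.20) and epsilon (-1.74) subunits were lower and the alpha subunit was higher (0.46). Among elongation and termination factors, erfa-1, a release factor, was higher (0.83 ± 0.15), and eef-2 (0.10) and eef-1A.1 (-0.50) did not pass the test. Of 31 aminoacyl tRNA synthetases, 11 (35.5%) were higher and 12 (38.7%) lower, against 31.7 and 28.5% of all genes. Adjusted for length, 17 were higher and 11 lower. The lowest were vars-1 (-2.13 ± 0.19) and the genes iars-2 (-1.66), rars-2 (-1.60) and ears-2 (-1.40). Mitochondrial ribosomal proteins were higher for 29 of 70 and lower for 12, and adjusted for length for 14 and 25.

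Chromatin and RNA processing genes had members at both ends. Core and linker histones were higher for 22 of 61 (36.1%) and lower for 12 (19.7%), against 31.7 and 28.5% of all genes, with a median of 0.41. Adjusted for length, 12 were higher and 26 lower (median -0.38). The histone H3.3 genes his-72 (1.32) and his-71 (1.19) and the linker histone genes his-24 (1.46) and hil-1 (1.44) were higher. The mRNAs of replication-dependent histones are not polyadenylated in most animals, and 13 of the 61 histone genes had counts identical to another gene. The Sm proteins, the core of the spliceosomal particles, were all higher, with snr-7 at 94.4, 152 and 162 CPM in polysomal RNA and 31.7, 56.2 and 39.7 CPM in total RNA (1.68 ± 0.15). The splicing factor gene prp-39 (-1.99 ± 0.17) was lower. Of 49 muscle genes, 26 were higher and 13 lower: unc-60 (1.33) and mlc-1 (1.54) were higher, and the giant genes ttn-1 (-1.82) and unc-22 (-1.40) and the myosin gene myo-5 (-1.79) were lower. Adjusted for length, 30 of 49 muscle genes were higher and 7 lower.

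Genes for substrate adaptors of ubiquitin ligases, which form large families in worms, had few members that were higher. F-box genes were lower for 66 of 210 (31.4%) and higher for 9, with a median of -0.40 (-0.49 adjusted for length). That share is near the 28.5% of all genes, while the share of higher genes, 4.29%, is below the 31.7% of all genes. BATH, MATH and BTB domain genes were lower for 28 of 70 and higher for 5 (median -0.45 with and without the adjustment). The gene fbxa-215 had 12.3, 16.4 and 9.64 CPM in polysomal RNA and 90.7, 109.8 and 129 CPM in total RNA (ratio -3.12 ± 0.18), and math-3 had 1.84, 2.19 and 2.22 CPM against 12.8, 10.8 and 15 CPM (ratio -2.62 ± 0.21). Nuclear hormone receptors were lower for 62 of 180 (34.4%) and higher for 30 (16.7%), with a median of -0.22. Homeobox genes were higher for 25 of 73 (34.25%) and lower for 16 (21.9%), with a median of 0.35. The 34.4% lower and 34.25% higher are near the 28.5 and 31.7% of all genes. With a filter of 5 CPM in 3 libraries, the homeobox median differed from that of all genes by -0.06. The homeobox gene ceh-38 was low (-2.32 ± 0.18). Of 16 stress response genes tested, 5 (31.25%) were higher and 6 (37.5%) lower, against 31.7 and 28.5% of all genes. Their median was -0.20, and 0.25 adjusted for length. The ferritins ftn-1 (1.63) and ftn-2 (1.57) were higher, and the stress sensors ire-1 (-1.48) and pek-1 (-1.11) and the factor atf-4 (-0.68) were lower.

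**Figure D4:**
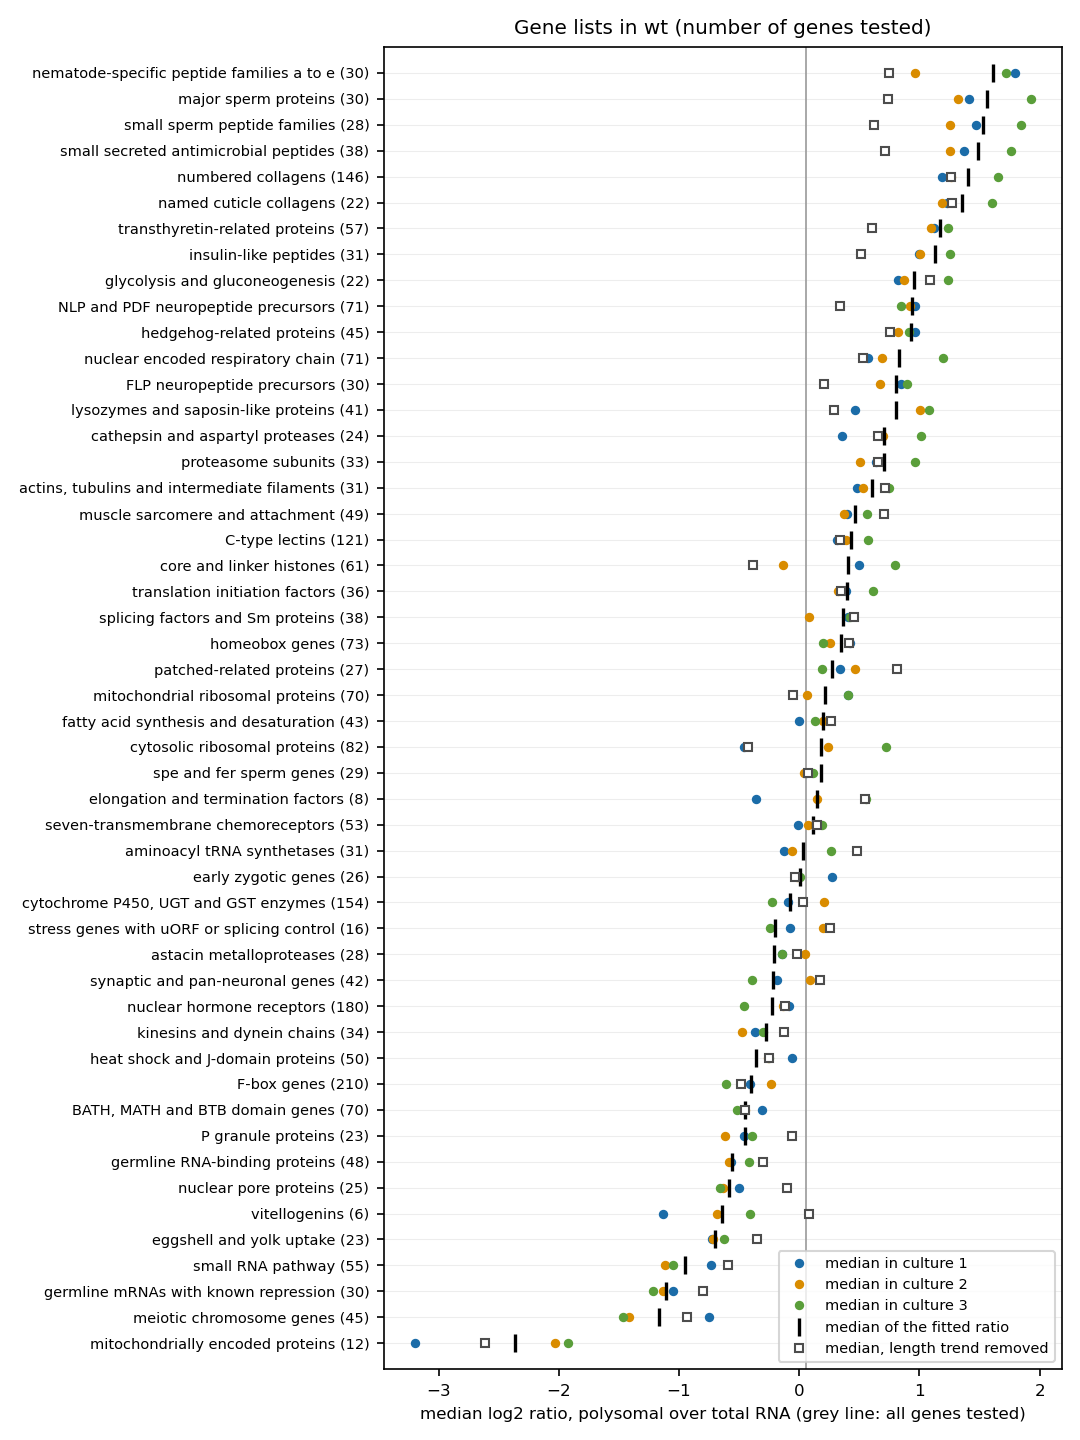
Median log2 polysomal to total ratio (x axis) of 50 gene lists (y axis, with the number of genes tested), with the median of each culture as a filled point, that of the fitted ratio as a black bar and that after removal of the length trend as an open square. Collagens keep their place after the adjustment, while the medians of histones and cytosolic ribosomal proteins change sign and that of the vitellogenins goes from -0.64 to 0.08.

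Protein-coding genes of the X chromosome were higher for 759 of 2132 and lower for 410, with a median of 0.25, against 4217 higher and 3793 lower of 13034 autosomal genes, with a median of 0.06. Their culture medians were 0.27, 0.26 and 0.21. Adjusted for length, 831 genes of the X chromosome were higher and 290 lower, with a median of 0.32, against 0.03 for autosomes.

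Culture 1 lay below the others in both fractions for some abundant genes of the adult, among them yolk and collagen genes. The collagen gene rol-1 had 20.1, 99.3 and 86.5 CPM in polysomal RNA and 6.89, 40.0 and 25.6 CPM in total RNA of cultures 1, 2 and 3. The intestinal markers elt-2 (14.1 to 16.8 CPM) and ges-1 (42.1 to 51.6 CPM) varied little between the total RNA libraries. The more abundant intestinal marker asp-3 varied more, from 1616 to 2841 CPM. The vitellogenin genes, which encode the yolk proteins, were lower in polysomal RNA for 4 of 6, with a median of -0.64 and a length-adjusted median of 0.08. The gene vit-3 had 0.274, 70.9 and 74.7 CPM in polysomal RNA and 0.687, 110 and 93.0 CPM in total RNA of cultures 1, 2 and 3, so that culture 1 lay far below the others in both fractions. The more abundant vit-2 had 3525, 7705 and 8102 CPM against 11409, 15429 and 13315 CPM (ratio -1.14 ± 0.44, adjusted p = 0.025). For vit-2 and vit-5 (-1.51 ± 0.30) the fractions did not overlap, but the vit-2 call was lost when adjusted for length (-0.42, adjusted p = 0.46), without culture 1 (-0.87, adjusted p = 0.106), without culture 2 (adjusted p = 0.33) and with upper-quartile scaling (adjusted p = 0.152). The vit-5 call was lost without the pairing (adjusted p = 0.060) and with coding length removed (-0.74, adjusted p = 0.053). The other lower ones, vit-1 (-0.58) and vit-3 (-0.58), were at 0.15 and 0.18 adjusted for length and passed neither there nor with upper-quartile scaling (adjusted p = 0.120 and 0.162). The actin gene act-5 had 158, 1075 and 1077 CPM in polysomal RNA and 52.9, 364 and 301.5 CPM in total RNA. Within each culture the polysomal level was above the total level, although the levels of culture 1 were well below the others. Without culture 1, 4136 genes were higher and 4242 lower, and the rank correlation with length was -0.459.

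The difference between the ratio in wt and the ratio in glh1 was tested in all 12 libraries with each culture as a block. Of 16526 genes, 0 had a higher and 0 a lower ratio in wt than in glh1 at an adjusted p under 0.05 (edgeR), against 538 at an unadjusted p under 0.05. When glh1 culture 3 was left out, an alternative chosen after seeing the data, 84 genes had a higher and 130 a lower ratio in wt. Across 15855 genes the ratios in wt and glh1 ranked alike (Spearman's rho 0.905, from separate libraries), and the relation with length was -0.457 in wt and -0.391 in glh1. The median of the numbered collagens was 1.4 in wt and 1.36 in glh1, that of the meiotic genes -1.17 and -1.04, and that of the mRNAs with known repression -1.11 and -0.87. Other lists lay further apart, with no test of the list: the major sperm proteins had a median of 1.56 in wt and 0.96 in glh1, where the cultures gave 0.46, 0.44 and 2.18, and the histones 0.41 in wt and 1.02 in glh1. The 5 ribosomal RNA genes had a median of -2.77 in wt and -0.37 in glh1, where the cultures gave -3.005, 0.76 and 0.68. With 3 cultures a genotype and 1 glh1 culture that changes the count from 0, the data do not show that the genotypes act alike.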

How the data were processed

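Polysomal and total RNA was sequenced from 3 wt cultures, 1 library of each per culture. The submitters' processing notes name STAR 2.6.1b with RSEM 1.3.0, DESeq2 1.24.0 under R 3.6.1, Trimmomatic 0.36 and the genome WBcel235. The count table is named for kallisto instead, so that the counting tool is not known. The deposited table holds estimated counts for 46904 gene IDs, of which 3.87 to 4.80% per wt library are not whole to within 1e-06. The deposited rlog table holds log2 values for 12709 genes and served 1 alternative. Symbols, classes and exon lengths (union of exons) came from Ensembl release 115 on the same build. No symbol was found for 2887 IDs, 87 of them not annotated.

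Counts were rounded, filtered with filterByExpr, scaled with TMM, and then fitted in R 4.3.3 by edgeR 4.0.16 (robust quasi-likelihood test, culture as a block, Benjamini and Hochberg adjustment, threshold 0.05). The SE is the absolute log2 ratio over the root of F, and its median was 0.198. The block was used because both fractions of a number came from 1 lysate. Deviations from the group mean correlated within cultures 1, 2 and 3 at 0.765, 0.464 and 0.298. Replicates differed by 28.1 to 301.6 in chi-square per degree of freedom, so that depth was not the limit. Nothing beyond the numbers says how separate the cultures were. With the block, the p-values measure the spread of the ratio between cultures, not that of the levels. The fit drew the spread of each gene toward that of other genes (median prior of 32.4 degrees of freedom). The p-values therefore rest largely on spread shared across genes. To remove the length trend, a lowess curve (span 0.3) of each library's centred log2 CPM (prior count 2) on log2 exon length entered as an offset. Counts of 88 genes equalled those of another gene in each library.

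The comparison, the 50 gene lists, the tests and the markers were chosen with earlier results of these data known. Genes were named from those called with a 2-fold difference or more, 1 CPM or more in the higher fraction, fractions that do not overlap and a class name: the first 12 in each direction, the first 8 adjusted for length, and, apart from these limits, up to 4 members of a list with the smallest adjusted p. The part of this rule for genes that differ between wt and glh1 named none. Other members were chosen after their values were seen. Alternatives were other scalings, filters, fits and lengths, limma 3.58.1 on rlog values, DESeq2 1.42.0, rRNA genes removed and each culture left out. The tests were also run on simulated data in which, apart from a length trend, few genes changed, evenly in both directions. That setting does not check the scaling in data where 60.2% of genes were called. Python 3.11.15, pandas 2.3.3 and matplotlib 3.10.9 made lists and figures.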

Additional observations from a re-analysis of the deposited data

How the results depend on the processing

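The pairing by culture moved the count of calls most. With no replicate block 3140 genes were higher and 3217 lower, in all 12 libraries with no replicate block 3321 were higher, and adjusted for length with no replicate block 2522 were higher and 2620 lower. Of 226 named genes, 21 lost their call with no replicate block and 0 with DESeq2 and the block. The largest losses elsewhere were 13 of 226 in 12 libraries with no replicate block and 8 of 222 with coding length removed, the 2 that changed sign included. Spearman's rho with exon length was -0.297 with no filter, -0.5 with the strict filter and -0.490 with limma on rlog values, and -0.018 and -0.047 once exon or coding length was removed, by construction. The vitellogenin genes vit-1 and vit-3 changed sign when the length trend was removed, at 0.15 and 0.18 for exon length and 0.19 and 0.22 for coding length, and neither passed (adjusted p = 0.271 to 0.460). The difference between wt and glh1 went from 0 genes to 84 higher and 130 lower in wt when glh1 culture 3 was left out, and the cause was not tested. With each wt culture left out, 4136 to 4350 genes were higher and 3829 to 4242 lower, and adjusted for length 3553 to 4323 and 3184 to 4037. The other settings kept both counts within 1.5-fold. The number of lists above the median of all genes was 30 of 50 and ranged from 27 to 32. Without culture 3 the ribosomal proteins and the elongation factors lay below that median, by 0.17 and 0.13. Genes under about 1 CPM in total RNA rest on few counts.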
